A study of Mus musculus with 20 samples.

Results

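The insulin receptor to FoxO pathway was followed at the level of 10 genes, chosen by symbol from the 23129 genes of the count table. They are the receptor genes Insr and Igf1r, the insulin receptor substrate genes Irs1, Irs2 and Irs4, the regulatory PI3-kinase subunit gene Pik3r1, and the FoxO transcription factor genes Foxo1, Foxo3, Foxo4 and Foxo6. All 10 were in the table, and 9 passed the filter on low counts and were tested, the exception being Foxo6. RNA was sequenced from AgRP neurons of the hypothalamus, sorted by their red fluorescence from C57BL/6 mice of postnatal days 25 to 30, with 1000 cells per sample. Wild-type mice carried AgRP-Cre/+ and Ai9/+, the allele that makes tdTomato after Cre has acted, and conditional knockout (cKO) mice carried the same 2 alleles with Phf6 flox/y, so Cre and the reporter were shared by every group and Phf6, an X-linked chromatin protein gene, was the gene targeted in Cre-expressing cells. Both genotypes were littermates, and each was either fed or fasted overnight, with food taken away at 5 pm on the previous day and water left, which made 4 groups of 5 libraries, called WT fed, WT fasted, cKO fed and cKO fasted. The labels do not say whether a library came from 1 mouse or from pooled cells, so p-values measure the spread between these libraries.

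Total counts ran from 10604977 to 13573524 in the fed libraries and from 8494499 to 10000278 in the fasted ones, so depth differed between the feeding states. Phf6 stood at 264 to 292 CPM, the count scaled to library size, in WT fed, 116 to 142 in WT fasted, 65 to 76.3 in cKO fed and 53.6 to 71.3 in cKO fasted, and the genotypes did not overlap in either feeding state. Whether the counted Phf6 reads lie in the deleted part is not given in the sources used here. All 11 markers of AgRP neurons were found in every group. Their summed level was 21306 to 23422 CPM in WT fed and 59874 to 85312 CPM in WT fasted. It was 27339 to 31962 CPM in cKO fed and 51271 to 69679 CPM in cKO fasted. The list includes Agrp, whose mean rose from 4554 to 14929 CPM with fasting in wild type, part of the rise of the sum. Of the 11 markers, 7 were higher and 2 lower with fasting in each genotype at an edgeR adjusted p under 0.05. Of all genes, 29.6% were higher and 31.3% lower in wild type, and 26% and 27% in cKO. In cKO fed against WT fed, 5 markers were higher and 0 lower, beside 5.87% and 3.81% of all genes. Agrp did not pass there (edgeR adjusted p = 0.288). The markers changed unequally, so the sum does not measure the share of AgRP neurons. Among the fasted libraries, replicates 1 and 2 stood apart from replicates 3 to 5, with a mean correlation of deviations from the group mean across genes of 0.043 within these sets and -0.441 between them in wild type, and -0.091 and -0.353 in cKO. The same split of the fed libraries gave -0.248 and -0.251 in wild type. The labels name no batch for them. For the 9 tested genes, where 1 set alone ended or gave a call, that value stands beside the result. Calls of the other genes named below were not checked by set or in any other alternative. In bulk samples, fewer cells of a type and less RNA per cell cannot be told apart.

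Insulin binds a receptor tyrosine kinase at the cell surface, and the active receptor phosphorylates substrate proteins that dock PI3-kinase through its regulatory subunit. The lipid product of PI3-kinase switches on AKT, which phosphorylates FoxO proteins and keeps them out of the nucleus. In AgRP neurons, FoxO1 is known for driving Agrp when insulin and leptin are low, and IGF-1 signals through the closely related receptor Igf1r. The values below are levels of RNA, not of protein or phosphorylation.

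The 3 insulin receptor substrate genes are shown first by the sequence before their transcription start, because 2 of them share a long exact run of letters while their RNA levels differ widely. RefSeq's table of promoter windows (build GRCm38.p6) held 7 of the 10 genes, namely Irs1, Irs2, Irs4, Igf1r, Pik3r1, Foxo1 and Foxo3. The 250 bases before the start are printed 5′ to 3′ on the gene's own strand, which is the minus strand for all 3. They lie at chr1:82291440-82291689 for Irs1, chr8:11008930-11009179 for Irs2 and chrX:141725218-141725467 for Irs4. Starts in these windows are RefSeq's. The gene coordinates given with the results are GENCODE's, whose start lies 23 bases downstream of RefSeq's for Irs1, 471 bases downstream for Irs2 and 46 bases upstream for Irs4, inside the printed bases. Capitals mark every match to CACGTG, the E-box core, and to TGTTTTG, both searched on both strands.
Irs1: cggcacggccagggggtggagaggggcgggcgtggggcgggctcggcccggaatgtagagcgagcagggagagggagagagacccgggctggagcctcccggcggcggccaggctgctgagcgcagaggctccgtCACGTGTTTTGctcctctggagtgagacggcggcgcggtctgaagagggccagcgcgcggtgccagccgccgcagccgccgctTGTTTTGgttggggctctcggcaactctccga
Irs2: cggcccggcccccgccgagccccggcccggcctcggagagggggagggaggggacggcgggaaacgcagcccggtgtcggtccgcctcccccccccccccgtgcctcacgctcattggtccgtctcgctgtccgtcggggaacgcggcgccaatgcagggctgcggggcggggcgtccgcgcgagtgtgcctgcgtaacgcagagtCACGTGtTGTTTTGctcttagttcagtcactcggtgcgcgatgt
Irs4: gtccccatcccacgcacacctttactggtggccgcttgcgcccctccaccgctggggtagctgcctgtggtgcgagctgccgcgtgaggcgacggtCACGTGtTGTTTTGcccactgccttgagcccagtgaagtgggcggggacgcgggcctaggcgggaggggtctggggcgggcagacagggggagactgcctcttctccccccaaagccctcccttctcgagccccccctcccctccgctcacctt
The longest run of letters that the Irs2 and Irs4 windows shared was GTCACGTGTTGTTTTGC, of 17 letters, which holds both motifs and began 46 bases before RefSeq's start of Irs2 and 156 bases before that of Irs4. On either strand, it was found in 2 of the 32851 windows of 300 bases in the table, those of Irs2 and Irs4. The longest run shared by all 3 genes was GTCACGTGTT, which 0.0761% of all windows held. In Irs1 it began 117 bases before the start and ran into a TGTTTTG that overlapped CACGTG, and another TGTTTTG began 32 bases before the start. CACGTG alone was present in 7.15% of all windows, TGTTTTG in 6.28% and both in 0.408%. GTAAACA, a form of the forkhead site, was present in 3.65% of all windows and in none of the windows of the 7 genes. At that share, its absence from so few windows is not informative and does not show that they lack a forkhead site. TGTTTTG reads CAAAACA on the other strand, and whether FoxO proteins bind it in these windows was not tested. The motifs were picked after these sequences had been read, and a match is a description of letters only.

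Levels were compared between genes as RPKM, the CPM per kilobase of exon. Irs4 was the most abundant of the 10 RNAs in every group, at 94.7 ± 5.63 RPKM (SD, n = 5) in WT fed, 100.3 ± 3.73 in WT fasted, 99 ± 3.07 in cKO fed and 92 ± 3.26 in cKO fasted. It ranked 185 of 23129 genes by mean CPM in WT fed. After it came Foxo1 at 9.83 ± 0.661 RPKM in WT fed, Pik3r1 at 5.24 ± 0.54, Irs2 at 4.23 ± 0.585 and Insr at 1.78 ± 0.206. That order, with Foxo4 after Insr, held in all 4 groups, and the ranges of neighbours in it did not overlap apart from Pik3r1 and Irs2 in WT fed. Lower down the order varied and neighbours often overlapped, with Foxo4, Irs1, Igf1r, Foxo6 and Foxo3 all at or below 1.01 RPKM on average in every group. In WT fed, Irs4 made up 95.4% ± 0.517 (SD, n = 5) of the summed RPKM of the 3 substrate genes, Irs2 4.26% ± 0.51 and Irs1 0.373% ± 0.071. Foxo1 made up 87.4% ± 2.17 of the FoxO total in WT fed, 93.7% ± 0.776 in WT fasted, 90.7% ± 1.37 in cKO fed and 93.8% ± 1.72 in cKO fasted.

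**Figure D1:**
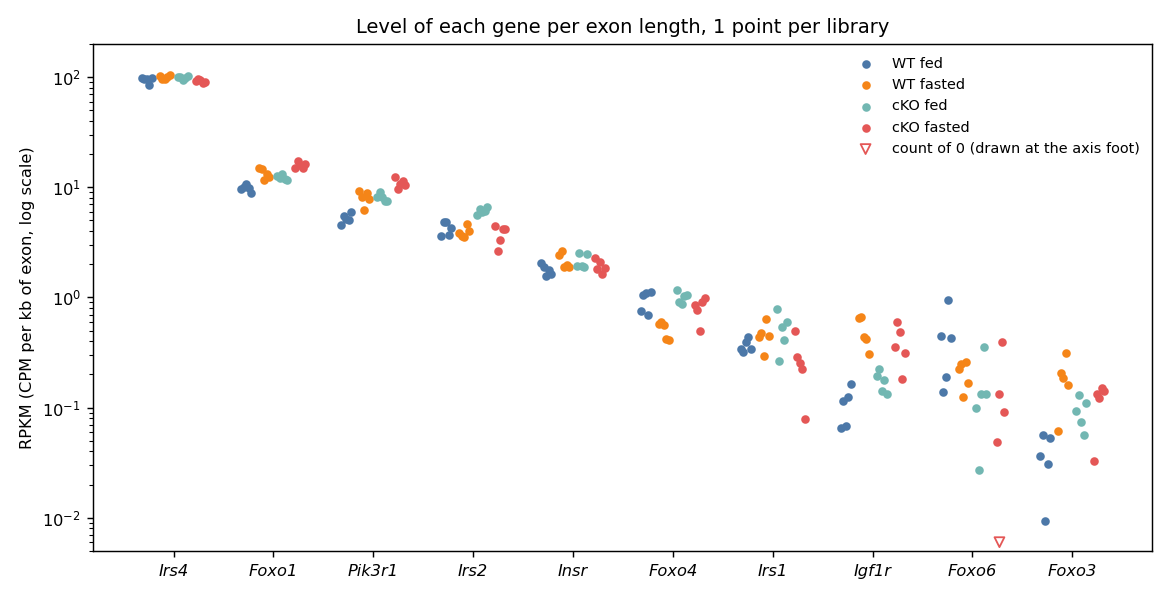
Level of each of the 10 genes in RPKM on a log axis, by group, with every library as a point. Irs4 lies at 94.7 RPKM in WT fed, far above Foxo1 at 9.83 RPKM, and Foxo3 is lowest at 0.0373 RPKM.

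Fasting in wild type raised 4 of the 9 tested genes, namely Igf1r, Pik3r1, Foxo1 and Foxo3, and lowered Foxo4. Foxo3 passed the filter mostly through WT fasted, the group where it was high. Its place in the counts here and in the interaction below therefore rests on that group. Of all 13237 genes tested, 29.6% were called higher and 31.3% lower in this comparison, at an edgeR adjusted p under 0.05. The median log2 fold change was 0.32 over the 9 genes and -0.03 over all genes. Fasting in cKO raised Igf1r, Pik3r1 and Foxo1 and lowered Irs1 and Irs2, against 26% of all genes called higher and 27% called lower. Its median was -0.10 over the 9 genes and -0.03 over all genes. In fed mice, cKO was higher than wild type in Irs2, Pik3r1 and Foxo1 and lower in none, against 5.87% of all genes called higher and 3.81% lower, with medians of 0.50 over the 9 genes and 0.01 over all genes. In fasted mice, cKO was higher in Pik3r1 and Foxo1 and lower in none, against 11.5% and 8.84% of all genes, with medians of -0.12 and -0.01. The interaction, which is the log2 effect of fasting in cKO minus that in wild type, was called lower for Irs1, Irs2 and Foxo3 and higher for none, against 8.44% and 8.87% of all genes, with medians of -0.44 and -0.03. These comparisons share groups: WT fed is the reference of both the wild-type fasting effect and the fed genotype effect. The GC and length offsets gave 646 higher and 727 lower calls over all genes in fed mice, where the scaling used gave 777 and 504, and upper-quartile scaling gave 1232 and 1575 in fasted mice, where the scaling used gave 1517 and 1170.

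**Figure D2:**
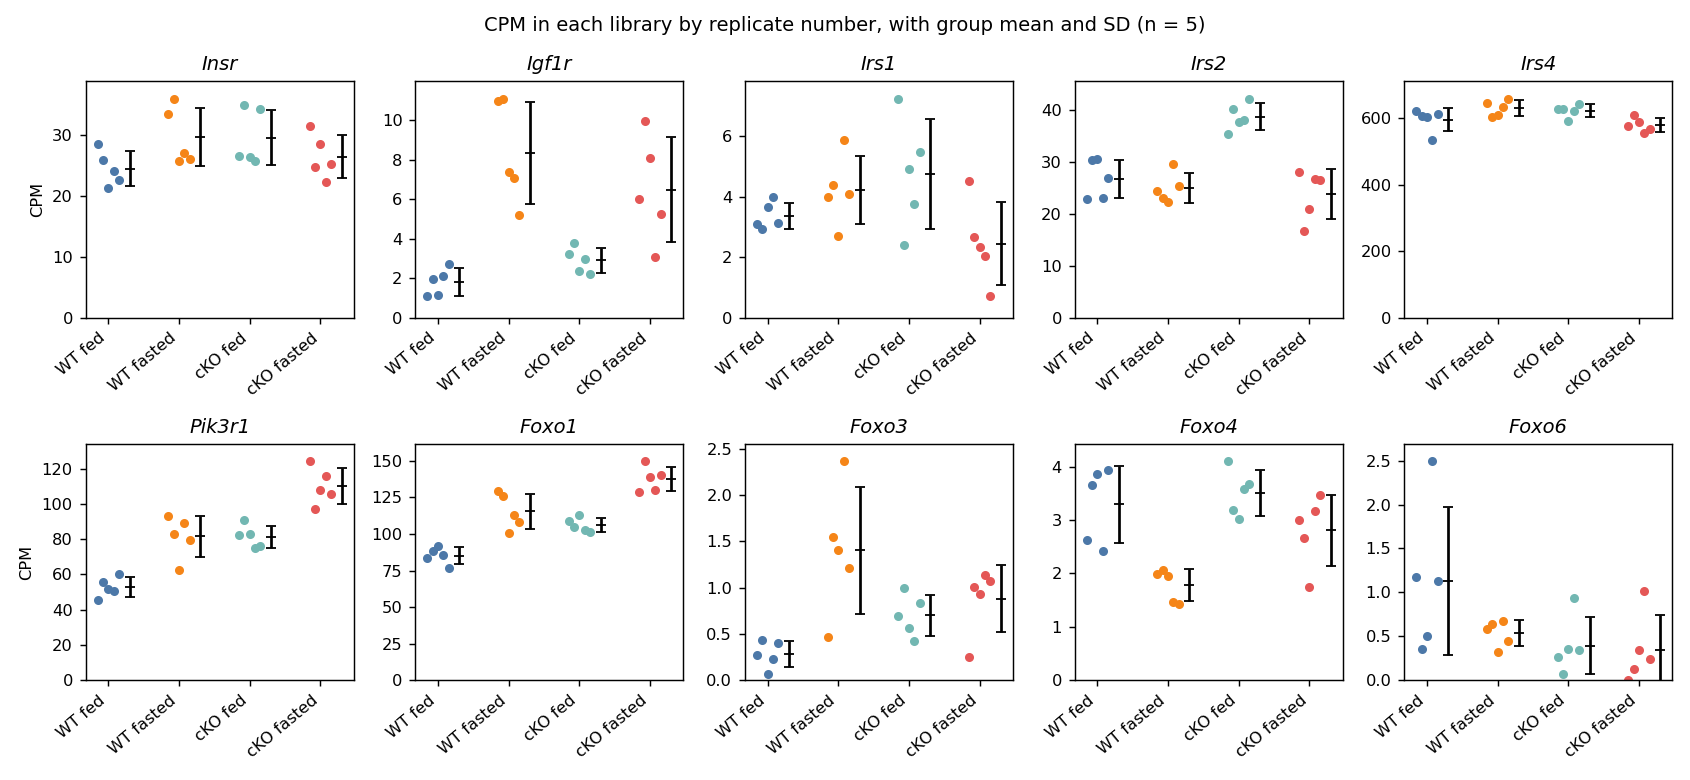
CPM of each gene in each library, by group and in order of replicate number, with the group mean and SD beside the points (n = 5; linear axes from 0, with error bars cut at 0). Pik3r1 and Foxo1 are lowest in WT fed and highest in cKO fasted, whereas Irs2 stands apart in cKO fed alone, at 35.4 to 42.2 CPM.

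Insr, the insulin receptor gene (chr8:3122061-3279617 on the minus strand, GRCm38), did not pass the test in any comparison. In WT fed it stood at 28.5, 26, 21.3, 24.1 and 22.6 CPM in replicates 1 to 5, and in WT fasted at 33.4, 36, 25.8, 27.1 and 26.1 CPM (log2 fold change 0.27 ± 0.12 (SE), edgeR adjusted p = 0.0533). All 5 fasted libraries lay above the fed mean, but 3 of them lay inside the fed range. Fasted replicates 1 and 2 were the high ones, and the adjusted p was 0.00307 with these 2 alone. It also fell under 0.05 with the GC and length offsets (0.0108), with DESeq2's Wald test (0.0328) or size factors (0.0388), with only the groups compared in the fit (0.0448), and without WT fed replicate 1 or WT fasted replicate 3, 4 or 5. With fasted replicates 3 to 5 alone it was 0.461. In cKO, Insr stood at 25.7 to 34.9 CPM when fed and 22.4 to 31.5 CPM when fasted (log2 fold change -0.16 ± 0.12 (SE), edgeR adjusted p = 0.27), and these ranges overlapped. The genotype differences were 0.27 ± 0.12 on the log2 scale in fed mice (edgeR adjusted p = 0.161, approximate 95% interval 0.04 to 0.51) and -0.16 ± 0.12 in fasted mice (edgeR adjusted p = 0.382, interval -0.41 to 0.08). The interaction was -0.44 ± 0.17 on the log2 scale (edgeR adjusted p = 0.08) and passed without cKO fasted replicate 1.

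Igf1r, the gene of the IGF-1 receptor (chr7:67952827-68233668, plus strand), was the receptor gene that changed with fasting. In wild type it stood at 1.1, 1.94, 1.14, 2.1 and 2.73 CPM when fed and at 11, 11.1, 7.38, 7.09 and 5.19 CPM when fasted. The groups did not overlap, and fasted replicates 1 and 2 were the highest (log2 fold change 2.21 ± 0.30 (SE), edgeR adjusted p = 3.21e-07). In cKO it stood at 3.23, 3.76, 2.38, 2.98 and 2.22 CPM when fed and at 6.0, 9.99, 8.11, 3.06 and 5.25 CPM when fasted (log2 fold change 1.15 ± 0.29 (SE), edgeR adjusted p = 0.00144). Here 4 of 5 fasted libraries lay above every fed one. Genotype differences were not called in fed mice (log2 fold change 0.70 ± 0.31 (SE), edgeR adjusted p = 0.167) or in fasted mice (log2 fold change -0.36 ± 0.28 (SE), edgeR adjusted p = 0.385). The fasting effect in cKO minus that in wild type was -1.06 ± 0.42 on the log2 scale and was not called (edgeR adjusted p = 0.0776), although it passed without WT fed replicate 5, WT fasted replicate 5 or cKO fasted replicate 2. The ratio of Insr to Igf1r in RPKM was 19 ± 8.4 (SD, n = 5) in WT fed and 4.56 ± 0.964 in WT fasted, and 12.9 ± 3.62 and 5.7 ± 2.23 in cKO fed and cKO fasted. The Igf1r values rest on 16 to 94 Igf1r reads in a wild-type library.

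Irs4, an X-linked substrate gene known for its expression in the hypothalamus (chrX:141710998-141725263, minus strand), did not pass the test in any comparison despite its depth of 4608 to 9291 reads per library. Its mean was 596 ± 35.4 CPM (SD, n = 5) in WT fed, 631 ± 23.5 in WT fasted, 623 ± 19.3 in cKO fed and 579 ± 20.5 in cKO fasted. The fasting effect was 0.08 ± 0.048 on the log2 scale in wild type (edgeR adjusted p = 0.135) and -0.11 ± 0.048 in cKO (adjusted p = 0.0667), with approximate 95% intervals of -0.01 to 0.18 and -0.20 to -0.01. The genotype effect was 0.06 ± 0.048 in fed mice (edgeR adjusted p = 0.451) and -0.12 ± 0.048 in fasted mice (adjusted p = 0.0664). Its interaction was -0.19 ± 0.068 (edgeR adjusted p = 0.054) and passed with upper-quartile scaling (0.0177) and DESeq2's Wald test (0.0274), and without cKO fed replicate 3, WT fasted replicate 2 or cKO fasted replicate 2. It also passed with fasted replicates 3 to 5 alone (0.01). The fasting effect in cKO passed with upper-quartile scaling (0.013), with fasted replicates 3 to 5 alone (0.0232) and without cKO fed replicate 3 or cKO fasted replicate 2. The genotype effect in fasted mice passed with upper-quartile scaling (0.0152), DESeq2's Wald test (0.0367), fasted replicates 3 to 5 alone (0.0175) and without replicate 2 of either fasted group, and the fasting effect in wild type passed with the GC and length offsets (0.00156). These offsets turned the sign of the fasting effect in cKO, to 0.04 on the log2 scale (adjusted p = 0.525).

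Irs2, the substrate gene whose product is a main link from the insulin receptor to PI3-kinase in brain and liver (chr8:10984681-11008458, minus strand), stood apart in cKO fed. In fed mice it was at 22.9, 30.3, 30.5, 23.1 and 27 CPM in wild type and at 35.4, 40.3, 37.6, 38.2 and 42.2 CPM in cKO. Every cKO library lay above every wild-type one (log2 fold change 0.54 ± 0.12 (SE), edgeR adjusted p = 0.00316). In fasted mice it was at 24.4, 23, 22.2, 29.6 and 25.4 CPM in wild type and at 28, 16.7, 21, 26.7 and 26.5 CPM in cKO, and the groups overlapped (log2 fold change -0.07 ± 0.13 (SE), edgeR adjusted p = 0.744, approximate 95% interval -0.31 to 0.18). Fasting lowered Irs2 in cKO with no overlap (log2 fold change -0.70 ± 0.12 (SE), edgeR adjusted p = 1.72e-05), while in wild type the change was -0.10 ± 0.12 on the log2 scale (edgeR adjusted p = 0.486, interval -0.34 to 0.14). With the GC and length offsets these were -0.40 (adjusted p = 0.00497) and, with the sign turned, 0.13 (adjusted p = 0.345). The test of the difference between these fasting effects gave -0.60 ± 0.17 on the log2 scale (edgeR adjusted p = 0.0144), and it passed without each of the 20 libraries in turn. Irs4 exceeded Irs2 by 22.7 ± 3.01 times in RPKM in WT fed and by 16.2 ± 0.992 times in cKO fed.

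Irs1, the substrate gene best known from muscle and fat (chr1:82233101-82291416, minus strand), was low, at 6 to 83 reads per library. In cKO it stood at 7.24, 2.41, 4.9, 3.75 and 5.48 CPM when fed and at 4.5, 2.66, 2.32, 2.04 and 0.716 CPM when fasted (log2 fold change -0.96 ± 0.32 (SE), edgeR adjusted p = 0.0134). The groups overlapped, and every fasted library lay below the fed mean. The call was lost without fed cKO replicate 1, the highest library (adjusted p = 0.0569), and with fasted replicates 1 and 2 alone (log2 fold change -0.40, adjusted p = 0.339, against -1.47 and 0.000796 with replicates 3 to 5). In wild type, Irs1 was at 2.94 to 3.97 CPM when fed and 2.71 to 5.86 CPM when fasted (log2 fold change 0.32 ± 0.31 (SE), edgeR adjusted p = 0.38). The genotype effect on Irs1 was 0.50 ± 0.30 in fed mice (edgeR adjusted p = 0.332) and -0.78 ± 0.33 in fasted mice (adjusted p = 0.094), where it passed without cKO fasted replicate 1 and with fasted replicates 3 to 5 alone (adjusted p = 0.0127). Its interaction was -1.28 ± 0.45 on the log2 scale (edgeR adjusted p = 0.0465), and it passed without 5 of the 20 libraries in turn, namely fed cKO replicates 2 and 4, fasted wild-type replicates 1 and 3 and fasted cKO replicate 1, but not without any of the other 15 (highest adjusted p 0.102). With fasted replicates 1 and 2 alone the interaction was -0.70 (adjusted p = 0.351), and with replicates 3 to 5 it was -1.80 (adjusted p = 0.00446). An antisense gene, Gm9747, overlaps 30.9% of the Irs1 exon bases, and the library kits do not mark strand, so reads of the pair cannot be told apart there.

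Pik3r1, which encodes the p85 alpha regulatory subunit of PI3-kinase (chr13:101680563-101768217, minus strand), was higher with fasting in both genotypes and higher in cKO in both feeding states. In wild type it stood at 45.7, 55.7, 51.7, 50.8 and 60.2 CPM when fed and at 93.4, 82.9, 62.6, 89 and 79.7 CPM when fasted (log2 fold change 0.63 ± 0.092 (SE), edgeR adjusted p = 1.30e-06). In cKO it stood at 82.1, 90.8, 82.8, 75 and 76.2 CPM when fed and at 124, 97.1, 108, 116 and 106 CPM when fasted (log2 fold change 0.44 ± 0.09 (SE), edgeR adjusted p = 0.000192). Neither pair of groups overlapped. Nor did the genotypes overlap in fed mice (log2 fold change 0.62 ± 0.091 (SE), edgeR adjusted p = 2.25e-05) or in fasted mice (log2 fold change 0.43 ± 0.092 (SE), edgeR adjusted p = 0.00131). Mean levels in cKO fed and WT fasted were 81.4 ± 6.31 and 81.5 ± 11.8 CPM (SD, n = 5). The interaction was -0.19 ± 0.13 on the log2 scale (edgeR adjusted p = 0.329). The 4 calls remained in every alternative, including each set of fasted replicates.

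Foxo1, the FoxO gene with the highest level in these cells (chr3:52268336-52353221, plus strand), followed the same order of groups. In wild type it stood at 83.8, 88.1, 92, 85.4 and 76.6 CPM when fed and at 129.5, 126, 101, 113 and 108 CPM when fasted (log2 fold change 0.44 ± 0.07 (SE), edgeR adjusted p = 3.99e-06). In cKO it stood at 109, 105, 113, 102 and 101 CPM when fed and at 129, 149.7, 139, 130.2 and 140.3 CPM when fasted (log2 fold change 0.38 ± 0.069 (SE), edgeR adjusted p = 4.25e-05). Fed and fasted libraries did not overlap in either genotype. In fed mice the genotypes did not overlap either (log2 fold change 0.32 ± 0.069 (SE), edgeR adjusted p = 0.00303). In fasted mice they did, with wild-type replicate 1 above the lowest cKO library (log2 fold change 0.25 ± 0.07 (SE), edgeR adjusted p = 0.0102). That call was lost with only the groups compared in the fit (adjusted p = 0.0625) and with fasted replicates 1 and 2 alone (log2 fold change 0.14, adjusted p = 0.335, against 0.34 and 0.00034 with replicates 3 to 5). The fasting effects of the genotypes differed by -0.06 ± 0.098 on the log2 scale (edgeR adjusted p = 0.708, approximate 95% interval -0.26 to 0.13). Between Foxo1 and Pik3r1 the correlation of log2 CPM was 0.884 over the 20 libraries and 0.192 once group means were removed, as a description over libraries that share groups. An antisense gene, Gm20402, overlaps 7.78% of the Foxo1 exon bases. Antisense genes also overlap Irs4 (Gm15295, 6.08% of its exon bases) and Irs2 (9530052E02Rik, 2.56%).

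Markers of other cell types moved with some of the same groups. The summed level of the 9 astrocyte markers, all in the table, was lowest in WT fed, at 10.1 to 17 CPM. So were the mean levels of Pik3r1, Foxo1, Igf1r, Insr and Foxo3. The astrocyte sum was 34.3 to 64.3 CPM in WT fasted, 30.2 to 61.4 CPM in cKO fed, where Aqp4 was at 0, and 42.5 to 97.1 CPM in cKO fasted. Not all of these markers rose. In cKO fed against wild type, 1 of 5 tested was called higher and 4 were not called. Their median log2 fold change was -0.06, and 5.87% of all genes were called higher there. The 8 endothelial markers summed to 0.345 to 3.13 CPM in WT fed and 4.91 to 8.72 CPM in WT fasted, against 2.13 to 6.66 CPM and 2.0 to 19.4 CPM in cKO fed and cKO fasted. The 19.4 CPM came from cKO fasted replicate 3 alone, and the next highest library there had 4.93 CPM. Kdr was at 0 in both wild-type groups and Cdh5 in cKO fasted, and 2 of the 8 were tested. The 8 oligodendrocyte markers went the other way, from 90.6 to 105 CPM in WT fed to 49.2 to 73.6 CPM in WT fasted, where Cldn11 was at 0. The 13 markers of other hypothalamic neurons summed to 32.5 to 38.7 CPM in WT fed and 87.4 to 111 CPM in WT fasted, with Pmch at 0 in both and Ghrh at 0 in the latter. The 3 Pomc neuron markers summed to 439.6 to 1097 CPM in cKO fasted and 379 to 470.1 CPM in WT fasted. The 9 markers of microglia and macrophages summed to 24.8 to 31 CPM in WT fed and 31.3 to 37.4 CPM in WT fasted. In cKO fed and cKO fasted these sums were 34.3 to 42.2 CPM and 25.8 to 39.4 CPM. Among them Tmem119 was at 0 in every group. Cx3cr1 and C1qa were also at 0 in WT fed, Cx3cr1 and Csf1r in WT fasted, C1qa in cKO fed and Csf1r in cKO fasted. Only 1 of the 9 passed the filter on low counts, so the sums rest on few genes. The part of these cells in the values of the 10 genes was not tested.

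**Figure D3:**
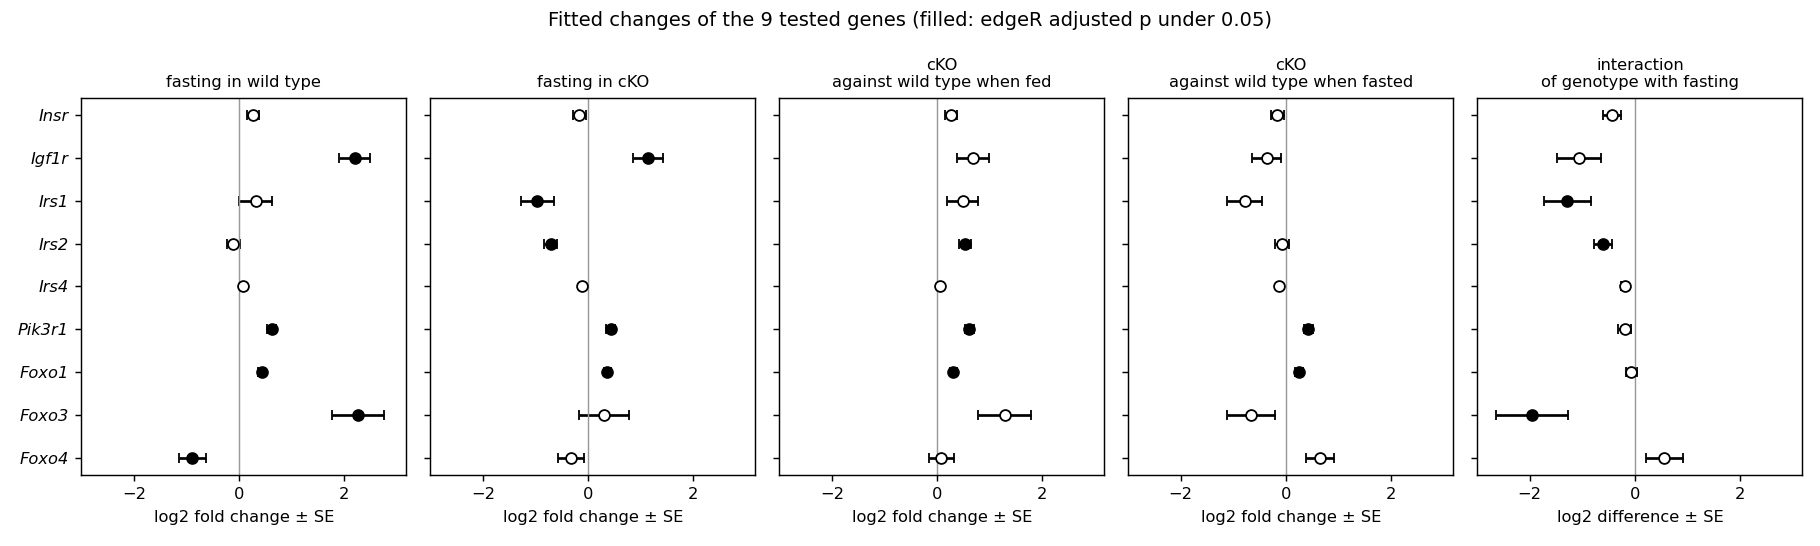
Fitted log2 fold changes with their SE for the 9 tested genes in the 4 comparisons, and the difference of the fasting effects (cKO minus wild type) at the right. Filled points passed an edgeR adjusted p under 0.05. Pik3r1 and Foxo1 are filled on the right of 0 in all 4 comparisons, and Irs2 is filled on opposite sides for cKO fed against wild type and for fasting in cKO.

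Foxo3, the FoxO gene known for stress resistance and cell survival (chr10:42181841-42276755, minus strand), was close to the counting limit, with 4, 6, 1, 3 and 5 reads in the 5 fed wild-type libraries and 4, 12, 13, 21 and 11 in the fasted ones. In CPM these were 0.0714 to 0.431 and 0.468 to 2.36, with no overlap (log2 fold change 2.27 ± 0.50 (SE), edgeR adjusted p = 0.000288). Foxo3 passed the filter mostly through WT fasted, the group where it was high: 4 of its 5 libraries reached the minimum of 0.971 CPM and none of the fed wild-type ones did. With fasted replicates 1 and 2 alone the adjusted p was 0.0509, and with replicates 3 to 5 it was 0.00018. In cKO it was at 0.426 to 0.993 CPM when fed and 0.25 to 1.13 CPM when fasted (log2 fold change 0.32 ± 0.47 (SE), edgeR adjusted p = 0.6). Genotype differences were not called in fed mice (1.29 ± 0.51, edgeR adjusted p = 0.114) or fasted mice (-0.66 ± 0.46, adjusted p = 0.337). Its interaction was -1.95 ± 0.69 on the log2 scale (edgeR adjusted p = 0.0491), and it passed without 3 of the 20 libraries in turn, namely fed wild-type replicate 2, fed cKO replicate 4 and fasted wild-type replicate 1, but not without any of the other 17 (highest adjusted p 0.114). It did not pass with either set of fasted replicates alone (adjusted p = 0.255 and 0.0614), without the filter on low counts (0.11) or with the GC and length offsets (0.0557).

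Foxo4, an X-linked FoxO gene (chrX:101254528-101260873, plus strand), was the FoxO gene, among those tested, that was called lower with fasting in wild type. It stood at 2.62, 3.66, 3.85, 2.41 and 3.94 CPM when fed and at 1.99, 2.07, 1.95, 1.46 and 1.43 CPM when fasted. Every fasted library lay below every fed one (log2 fold change -0.89 ± 0.26 (SE), edgeR adjusted p = 0.00383). With fasted replicates 1 and 2 alone the adjusted p was 0.0869, and with replicates 3 to 5 it was 0.00738. In cKO, Foxo4 was at 4.1, 3.19, 3.01, 3.58 and 3.68 CPM when fed and at 3.0, 2.66, 1.74, 3.18 and 3.46 CPM when fasted (log2 fold change -0.32 ± 0.24 (SE), edgeR adjusted p = 0.281). Fasted cKO had 4 of 5 libraries above every fasted wild-type one, and the difference was not called (log2 fold change 0.66 ± 0.27 (SE), edgeR adjusted p = 0.0813), although it passed without cKO fasted replicate 3. In fed mice it was 0.09 ± 0.23 (edgeR adjusted p = 0.862). The difference between the fasting effects was not called either (0.57 ± 0.35 on the log2 scale, edgeR adjusted p = 0.287). Foxo1 exceeded Foxo4 by 10.8 ± 2.62 times in RPKM in WT fed and by 26.6 ± 4.26 times in WT fasted.

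Foxo6, a FoxO gene known from the brain (chr4:120267079-120287349, minus strand), did not pass the filter and has no test. Its reads numbered 17, 5, 7, 32 and 14 in the fed wild-type libraries, 5, 5, 3, 6 and 4 in WT fasted, 3, 1, 5, 11 and 5 in cKO fed and 0, 1, 3, 9 and 2 in cKO fasted. In CPM it ranged over 0.359 to 2.49 in WT fed and reached at most 1.02 in a library of the other groups. The count of 0 in fasted cKO replicate 1 allows up to 3 reads, or 0.375 CPM, by counting error alone.

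Other genes of the pathway were read from 7 lists by role, chosen like the 10 genes with earlier results of these data known. Of 7 tested genes for ligands, binding proteins and the enzyme that degrades insulin, fasting in wild type raised 2 and lowered 3 (median log2 fold change -0.28), beside the 29.6% and 31.3% of all genes given above. Igfbp3, a binding protein of IGFs, rose from 1.53 ± 0.733 to 9.59 ± 1.76 CPM (SD, n = 5; log2 fold change 2.66 ± 0.32, edgeR adjusted p = 4.75e-08, where the error of a log2 fold change is its SE throughout), and Ide, the insulin-degrading enzyme, fell from 44.6 ± 3.39 to 27.6 ± 2.88 CPM (log2 fold change -0.69 ± 0.095, edgeR adjusted p = 4.24e-07). In fed mice, cKO was higher than wild type in Igf1, at 2.5 ± 1.8 against 0.467 ± 0.32 CPM (log2 fold change 2.39 ± 0.53, edgeR adjusted p = 0.00379), and in Igfbp5. The WT fed mean of Igf1 lay below the filter's minimum of 0.971 CPM, so this call rests on few reads, and it was not checked without single libraries. Of 13 adaptors, fasting in wild type raised 1, Crk, and lowered 8 (median -0.35), among them Sh2b1, which enhances insulin and leptin receptor signalling (log2 fold change -1.07 ± 0.12, edgeR adjusted p = 2.05e-08).

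Among 7 other PI3-kinase subunit genes, none rose with fasting in either genotype, and 3 fell in wild type and 4 in cKO, beside 31.3% and 27% of all genes called lower. Those that fell were Pik3r3, Pik3c3 and Pik3r4 in both genotypes, and Pik3r2 in cKO. Pik3c3 and Pik3r4 encode subunits of a PI3-kinase other than the one docked by the substrates. Pik3r3, which encodes the p55 gamma regulatory subunit, fell in wild type from 40.5 ± 2.23 to 14.1 ± 2.83 CPM (log2 fold change -1.52 ± 0.12, edgeR adjusted p = 6.76e-12), while Pik3r1, the p85 alpha gene, rose. In fed mice Pik3r3 was lower in cKO than in wild type, at 27.3 ± 2.81 CPM (log2 fold change -0.57 ± 0.11, edgeR adjusted p = 0.000677), also opposite to Pik3r1. In fasted mice it was higher in cKO, at 17.9 ± 2.03 CPM (log2 fold change 0.34 ± 0.12, edgeR adjusted p = 0.0478), the same direction as Pik3r1. Its fall with fasting was smaller in cKO (interaction 0.91 ± 0.16, edgeR adjusted p = 0.000267). Of 19 genes for AKT, SGK and mTOR pathway proteins, 3 rose and 8 fell in wild type, beside 29.6% and 31.3% of all genes, and 2 rose and 8 fell in cKO, beside 26% and 27%. Sgk1, a kinase that also phosphorylates FoxO proteins, rose from 44.3 ± 2.98 to 318 ± 33.6 CPM in wild type (log2 fold change 2.84 ± 0.075, edgeR adjusted p = 6.07e-22) and stood at 166 ± 7.74 CPM in cKO fed (log2 fold change 1.91 ± 0.074, edgeR adjusted p = 1.28e-17). Akt1 fell in wild type (log2 fold change -0.69 ± 0.088, edgeR adjusted p = 1.15e-07) and in cKO (log2 fold change -0.65 ± 0.088, edgeR adjusted p = 5.37e-07).

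Of 18 negative regulators, 4 rose and 10 fell with fasting in wild type (median -0.45), beside 29.6% and 31.3% of all genes, and 2 rose and 9 fell in cKO, beside 26% and 27%. Socs3, a feedback inhibitor of insulin and leptin signalling, fell from 16.6 ± 1.87 to 2.15 ± 1.4 CPM in wild type (log2 fold change -2.92 ± 0.29, edgeR adjusted p = 8.55e-10). Trib1, a pseudokinase gene, rose (log2 fold change 2.21 ± 0.17, edgeR adjusted p = 1.27e-11). Trib1 was also higher in cKO fed than in WT fed (log2 fold change 1.89 ± 0.17, edgeR adjusted p = 7.26e-09). Of 18 FoxO partners and modifying enzymes, 3 rose and 7 fell in wild type, and 4 rose and 5 fell in cKO, beside the same shares of all genes. Ywhah, a 14-3-3 protein gene, fell in both genotypes (in wild type log2 fold change -0.67 ± 0.064, edgeR adjusted p = 6.41e-10), as did Xpo1, the nuclear exporter (log2 fold change -0.79 ± 0.08, edgeR adjusted p = 1.72e-09 in wild type).

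Of 21 tested genes known as FoxO targets in some tissue, fasting in wild type raised 9 and lowered 4 (median 0.28), beside 29.6% and 31.3% of all genes. Fasting in cKO raised 6 and lowered 8 (median -0.20), beside 26% and 27%. In fed mice, cKO was higher than wild type in 5 and lower in none, beside 5.87% and 3.81% of all genes, and in fasted mice higher in 1 and lower in 5, beside 11.5% and 8.84%. The interaction was lower for 9 of the 21 and higher for none, beside 8.44% of all genes lower. Cdkn1a, a cell cycle inhibitor gene, rose from 4.45 ± 0.686 to 316 ± 35.2 CPM with fasting in wild type (log2 fold change 6.14 ± 0.12, edgeR adjusted p = 3.91e-25) and stood at 44.5 ± 1.97 CPM in cKO fed (log2 fold change 3.31 ± 0.12, edgeR adjusted p = 2.78e-18). Bnip3, a mitophagy gene, rose in wild type (log2 fold change 1.65 ± 0.06, edgeR adjusted p = 1.19e-18), as did Cited2, a transcriptional co-regulator gene (log2 fold change 1.49 ± 0.087, edgeR adjusted p = 2.99e-14). Agrp itself rose from 4554 ± 185 to 14929 ± 2487 CPM in wild type (log2 fold change 1.71 ± 0.088 (SE), edgeR adjusted p = 1.79e-15) and reached 11310.5 ± 1548 CPM in cKO fasted, below WT fasted (log2 fold change -0.40 ± 0.085 (SE), edgeR adjusted p = 0.00144). In WT fasted, Agrp stood at 17470 and 17826 CPM in replicates 1 and 2 and at 12998 to 13245 CPM in replicates 3 to 5. In cKO fasted it was at 11892 and 13744 CPM against 9976 to 10732 CPM. Foxo1 was called higher in cKO fasted than in WT fasted. That call was lost with fasted replicates 1 and 2 alone (edgeR adjusted p = 0.335) and with only the groups compared in the fit (0.0625). A link between the Foxo1 and Agrp levels was not tested.

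**Figure D4:**
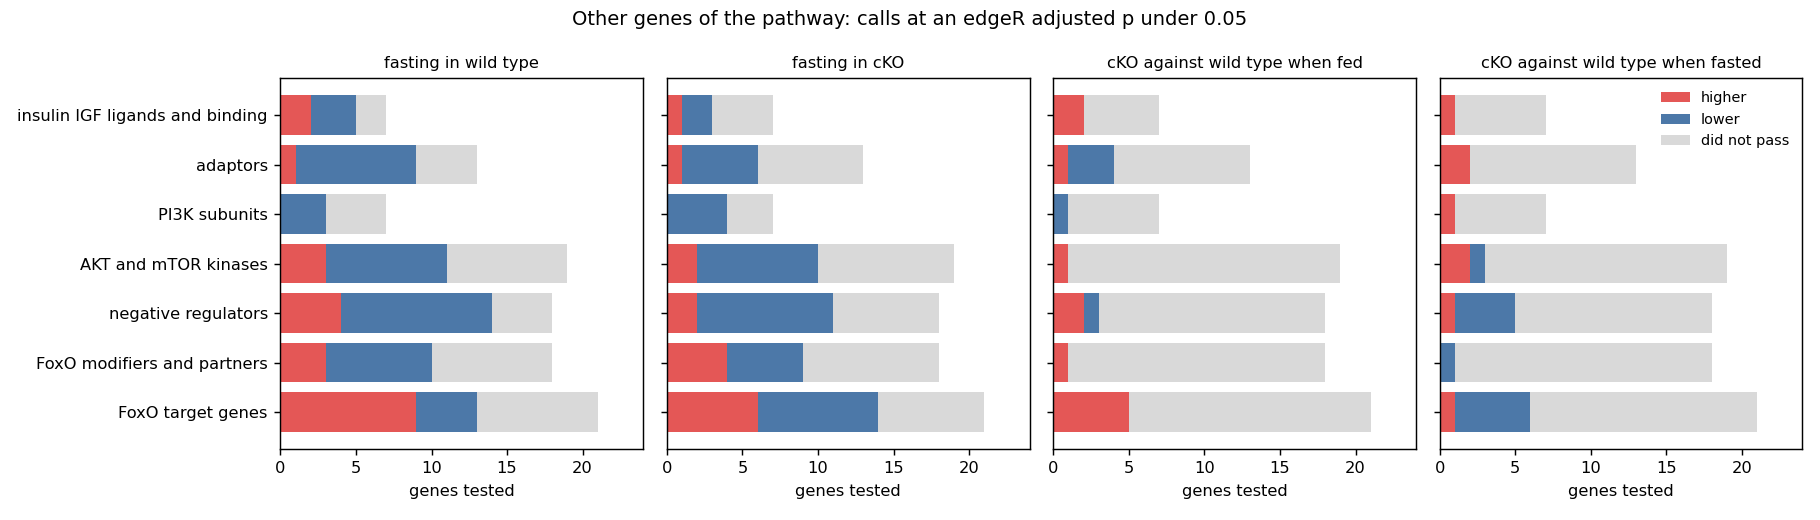
Number of tested genes in each of the 7 pathway lists that were called higher, called lower or did not pass, in the 4 comparisons. The FoxO targets have 9 higher and 4 lower calls for fasting in wild type and 6 higher and 8 lower calls for fasting in cKO. The adaptors have 1 higher and 8 lower calls for fasting in wild type and 1 and 5 in cKO, where 7 of 13 did not pass. The negative regulators have 4 higher and 10 lower calls in wild type and 2 and 9 in cKO. Of all genes, 31.3% were called lower in wild type and 27% in cKO.

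For each tested gene, the genes with the most similar pattern were taken by Pearson correlation of log2 CPM over the 20 libraries, among 10483 genes (10484 for Irs1, Foxo3 and Foxo4) with a mean of at least 2 on that scale. Foxo1 was most like Crem (0.958), 5330426P16Rik (0.956) and Dpys (0.949). Pik3r1 was most like Gm8773 (0.935), Crem (0.925) and Sema3a (0.921), so Crem, a cAMP-responsive transcription factor gene, stood among the nearest of both. Irs2 was most like Bend6 (0.856), Rapgef6 (0.853) and Txndc16 (0.842), and Igf1r was most like Insl6 (0.940), Cwc27 (0.938) and Cdh18 (0.927). The nearest gene was Magi2 for Insr (0.746), Slc23a2 for Irs4 (0.761), Xlr3b for Irs1 (0.825), Sdf4 for Foxo3 (0.873) and N4bp1 for Foxo4 (0.92). These values describe libraries that share groups and carry no test.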

How the data were processed

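RNA of the 20 libraries was amplified over 15 cycles with SMART-seq v4 and made into Nextera XT libraries, per the labels' protocols. The submitters' processing notes name Trimmomatic 0.36, HISAT2 2.1.0, featureCounts of Subread 1.6.2, DESeq2 1.20.0 and the build GRCm38/mm10. For counting, annotation and strand were not given in the sources used here. Raw read counts per gene were deposited by the authors, with a second table of normalized signal that holds those counts divided by 1 size factor per library to within 1.1e-09, and only the counts were tested.

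Counts were fitted with edgeR 4.0.16 (R 4.3.3) in 1 model of 4 group means over all 20 libraries, with TMM scaling, filterByExpr at a minimum count of 10 and total of 15, the quasi-likelihood test and Benjamini-Hochberg adjustment over 13237 genes, and genes were called at an adjusted p under 0.05. SE was the size of the log2 fold change over the square root of F, and intervals are approximate, from this SE. The test was run on simulated data first. CPM use TMM library sizes, and RPKM divide them by the union of exons in GENCODE M21, to which 22063 of 23129 symbols (95.4%) matched. Promoter windows and their sequences come from RefSeq. All 10 genes were named in every comparison, and from each pathway list up to 4 with the smallest p. Alternatives were DESeq2 1.42.0, other scalings, filters and offsets, a replicate block, only the groups compared, each set of fasted replicates and leaving out each library. The 10 genes, the lists and the alternatives were chosen with earlier results of these data known. Amplified reads carry no molecular identifiers, so the limit given for a count of 0 covers counting error only.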

Additional observations from a re-analysis of the deposited data

Results flagged for a closer look

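In WT fed, Irs4 was far from the others in 1 library of 5: replicate 4 had 534 CPM, the next lowest had 603 CPM and the gap was 0.787 of the range. Foxo3 had 0.25 CPM in fasted cKO replicate 1, where the next lowest had 0.927 CPM and the gap was 0.765 of the range. Among 40 pairs of gene and group examined these were the 2 found, and chance alone would mark about 1 in 20.

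The fasting effects of the genotypes differed, by the interaction test of edgeR, for 3 of the 9 tested genes, all lower, beside 8.44% of all genes called lower and 8.87% higher. Of these, Foxo3 passed the filter mostly through WT fasted, the group where it was high, so its place in the count rests on that group. The log2 difference, cKO minus wild type, was -1.28 ± 0.45 (SE) for Irs1 (adjusted p = 0.0465), -0.60 ± 0.17 for Irs2 (adjusted p = 0.0144) and -1.95 ± 0.69 for Foxo3 (adjusted p = 0.0491). Leaving out each of the 20 libraries in turn, the call held in all 20 fits for Irs2, in 5 for Irs1 and in 3 for Foxo3.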

How the results depend on the processing

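Among the 9 tested genes, no called result changed direction. Fits with only the groups compared gave 2952 calls over all genes for cKO fed against wild type, where the full fit gave 1281, and 1352 for cKO fasted against wild type, where the full fit gave 2687, with 1 of the 9 genes in place of 2. With fasted replicates 1 and 2 alone, cKO fasted against wild type had 1682 calls and 1 gene, and the interaction had 1 gene in place of 3. Fasted replicates 3 to 5 alone gave 4 genes for cKO fasted against wild type and 3603 interaction calls over all genes, where all libraries gave 2291. Leaving out each library in turn gave 7723 to 7937 calls for fasting in wild type, 6518 to 6960 in cKO, 905 to 1022 for cKO fed, 2030 to 3193 for cKO fasted and 1941 to 2700 for the interaction, and 5 to 6, 4 to 6, 3 to 3, 2 to 3 and 1 to 3 of the 9 genes. The cause was not tested. For single genes, 490 values from leaving out a library kept their call, 17 gained it and 33 lost it, and of the other values 392 kept it, 16 gained it and 11 lost it. Same-numbered libraries correlated at -0.054 to 0.131, and between WT fasted and cKO fasted at 0.022 to 0.131. Whether they share more than a number was not tested. The replicate block gave 8090, 7069, 1318, 2785 and 2347 calls over all genes in the order above, with 6, 5, 3, 2 and 2 of the 9 genes. With this block, Insr gained its edgeR call for fasting in wild type (adjusted p = 0.039), and Foxo3 lost its interaction (adjusted p = 0.0549). Foxo3, at 1 to 21 reads, and Foxo6, at 0 to 32, are limited by depth, and a change there could not be told from counting error in single libraries. The deposited signal was not tested.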
